A study of Mus musculus and Acomys cahirinus with 84 samples.

Results

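*Igsf9b*, *Inka2*, *Tbc1d2*, *Inpp5d*, *Sspn* and *Avil* are 6 protein-coding genes that were selected on their response to gamma irradiation in cultured skin fibroblasts. They are 6 of 56980 gene rows in the mouse table and 6 of 19818 in the *A. cahirinus* table. Each was chosen by a large change at 20 Gy in one population at one time. *Igsf9b* and *Sspn* were chosen in C56BL6 cells at 24 h, *Inka2* and *Tbc1d2* in wild mouse cells at 12 d, and *Inpp5d* in *A. cahirinus* cells at 24 h. *Avil* was chosen through the difference between the *A. cahirinus* and C56BL6 changes at 12 d. Values in those settings are given below as descriptions, and tests are given for the other populations, times and contrasts.

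The libraries were made from polyA RNA of primary skin fibroblasts of mice labelled C56BL6, of wild mice and of the African spiny mouse *Acomys cahirinus*. In each population cells were collected 24 h after 0, 10 or 20 Gy, and 12 d after 0, 10 or 20 Gy, and a further 12 d group was labelled untreated passaged. This gave 84 libraries in 21 groups of 4, each group with 1 library from each of 4 numbered animals. The labels put all 24 h libraries in one batch and all 12 d libraries in a second one. Time is thus confounded with batch, the pair cannot be told apart, and the times were not tested against each other. The labels used here gave no genotype, sex or age, and the same animal numbers recur in every group of a population.

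Counted reads per library were 25.55 to 52.86 M for *A. cahirinus*, 26.65 to 39.82 M for C56BL6 and 17.42 to 35.98 M for the wild mice, so 3 reads, taken here as the floor for a gene, stood for 0.057 to 0.172 counts per M reads (CPM). Fibroblast markers were abundant in all populations, with a summed level of at least 9920 CPM over 8 genes in every library. The *A. cahirinus* libraries also carried skeletal muscle markers. Across their 28 libraries the *Myod1* level was 31.1 to 184 CPM, *Myog* 170 to 1020 CPM and *Des* 244 to 1560 CPM, whereas *Myod1* and *Myog* did not exceed 0.225 CPM in any mouse library. *Des* reached 1420 CPM in a wild mouse library, and 4 keratinocyte markers summed to as much as 834 CPM in a C56BL6 library.

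The wild libraries numbered 1 were less alike across times than those of the other wild numbers. Genes at 2 CPM or more in one library and 0 in another were counted as a mark of animal identity. Wild libraries numbered 1 differed between the times by 32 to 214 such genes over 12 pairs, although the library names give them a single animal code, whereas numbers 2, 3 and 4 differed from themselves across times by 0 to 20. C56BL6 libraries of the same number differed across times by at most 34. Different wild numbers differed by 0 to 277 across times and by 0 to 179 within a time. A low count therefore does not mark a single animal, and the counts do not settle which animal a library came from. The 12 d libraries numbered 1 differed from the 12 d libraries numbered 4 by 0 to 16 genes over 16 pairs. At 24 h, the 10 Gy library numbered 1 differed from the other 24 h libraries of that number by 29 and 37 genes, while those differed from each other by 1. That 10 Gy library was also the shallowest of the series, at 17.42 M reads. Wild mouse results are therefore given with and without the libraries labelled number 1 wherever a call depended on them.

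The 6 proteins have separate roles. Igsf9b is an immunoglobulin-superfamily adhesion molecule of inhibitory synapses. Inka2 binds and inhibits the actin-regulating kinase PAK4. Tbc1d2, also called Armus, is a GTPase-activating protein that switches off Rab7, the small GTPase of late endosomes and autophagosomes. Inpp5d, also called SHIP1, removes the 5-phosphate from the PI3K product PIP3 and is best known in blood cells. Sspn, or sarcospan, is a tetraspan-like member of the dystrophin-glycoprotein complex that links the cytoskeleton to the matrix. Avil, or advillin, is an actin-binding protein of the gelsolin and villin family, best known in sensory neurons. Ionizing radiation breaks DNA and activates the transcription factor p53, whose targets include *Mdm2* and *Cdkn1a*, and dermal fibroblasts exposed to high doses commonly stop dividing.

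In GRCm39 the genes lie on 6 chromosomes. *Igsf9b* (ENSMUSG00000034275) is at chr9:27210500-27268842 on the plus strand, *Inka2* (ENSMUSG00000048458) at chr3:105611915-105628158 on the plus strand, and *Tbc1d2* (ENSMUSG00000039813) at chr4:46604390-46650209 on the minus strand. *Inpp5d* (ENSMUSG00000026288) is at chr1:87548034-87648229, *Sspn* (ENSMUSG00000030255) at chr6:145877367-145910949 and *Avil* (ENSMUSG00000025432) at chr10:126836578-126856863, all on the plus strand. Reads were counted without strand, and all but *Inka2* overlap other annotated genes, among them *Sspnos* for *Sspn* and *Tsfm* for *Avil*, so reads of shared stretches may be missing from their counts or come from either gene.

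*Igsf9b*, *Inka2* and *Tbc1d2* varied together across the mouse libraries, so the promoters of the pair that the RefSeq table held are shown here. RefSeq promoters (GRCm38.p6, 250 bases before to 50 after a start) were found for 5 of the 6 genes, in 7 entries, and *Igsf9b* was not matched. They were searched for the 10-base half-site of the p53 motif, a palindromic pattern that reads alike on both strands. The pattern was found in 1 of the 7 entries, the second of *Inka2*, starting 81 bases before the start site, against 2745 of all 32851 promoters (8.36%). Capitals mark the half-site. A match is a description of the letters and not a bound site. Inka2 promoter 1 is chr3:105704349-105704648, Inka2 promoter 2 is chr3:105705208-105705507, both on the plus strand, and the Tbc1d2 promoter is chr4:46650150-46650449 on the minus strand.
Inka2 promoter 1: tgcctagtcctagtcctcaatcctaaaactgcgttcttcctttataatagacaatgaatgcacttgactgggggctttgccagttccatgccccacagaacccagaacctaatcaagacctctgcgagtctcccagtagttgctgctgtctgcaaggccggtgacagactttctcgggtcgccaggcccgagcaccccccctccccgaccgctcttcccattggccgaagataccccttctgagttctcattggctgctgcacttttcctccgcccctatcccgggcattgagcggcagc
Inka2 promoter 2: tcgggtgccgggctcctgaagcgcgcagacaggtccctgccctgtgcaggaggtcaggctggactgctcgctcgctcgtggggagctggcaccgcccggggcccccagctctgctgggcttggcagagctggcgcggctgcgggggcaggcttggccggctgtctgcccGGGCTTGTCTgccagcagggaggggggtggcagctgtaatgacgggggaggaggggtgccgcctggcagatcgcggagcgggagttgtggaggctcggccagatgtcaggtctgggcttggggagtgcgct
Tbc1d2 promoter: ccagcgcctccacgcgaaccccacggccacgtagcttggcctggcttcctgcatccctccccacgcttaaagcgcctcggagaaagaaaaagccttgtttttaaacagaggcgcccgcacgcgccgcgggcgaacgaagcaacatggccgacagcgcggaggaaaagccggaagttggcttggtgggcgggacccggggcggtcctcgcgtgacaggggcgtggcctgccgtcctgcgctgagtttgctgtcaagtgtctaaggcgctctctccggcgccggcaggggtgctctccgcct

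Levels differed widely between the genes. Per kilobase of exon, the untreated C56BL6 cells at 24 h had a mean level of 8.96 CPM per kb for *Sspn*, 3.37 for *Inka2*, 3.12 for *Tbc1d2*, 1.95 for *Avil*, 0.262 for *Igsf9b* and 0.00441 for *Inpp5d*. Untreated *A. cahirinus* cells at 24 h had 11 CPM per kb for *Avil*, 9.32 for *Sspn*, 2.11 for *Inka2*, 0.388 for *Inpp5d*, 0.222 for *Tbc1d2* and 0.168 for *Igsf9b*. *Avil* thus stood first in *A. cahirinus* and 4th in C56BL6. All further levels are CPM of one gene, scaled by trimmed-mean (TMM) factors. Mouse and *A. cahirinus* levels come from separately normalised tables with different gene models, and their difference in level was not tested.

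**Figure D1:**
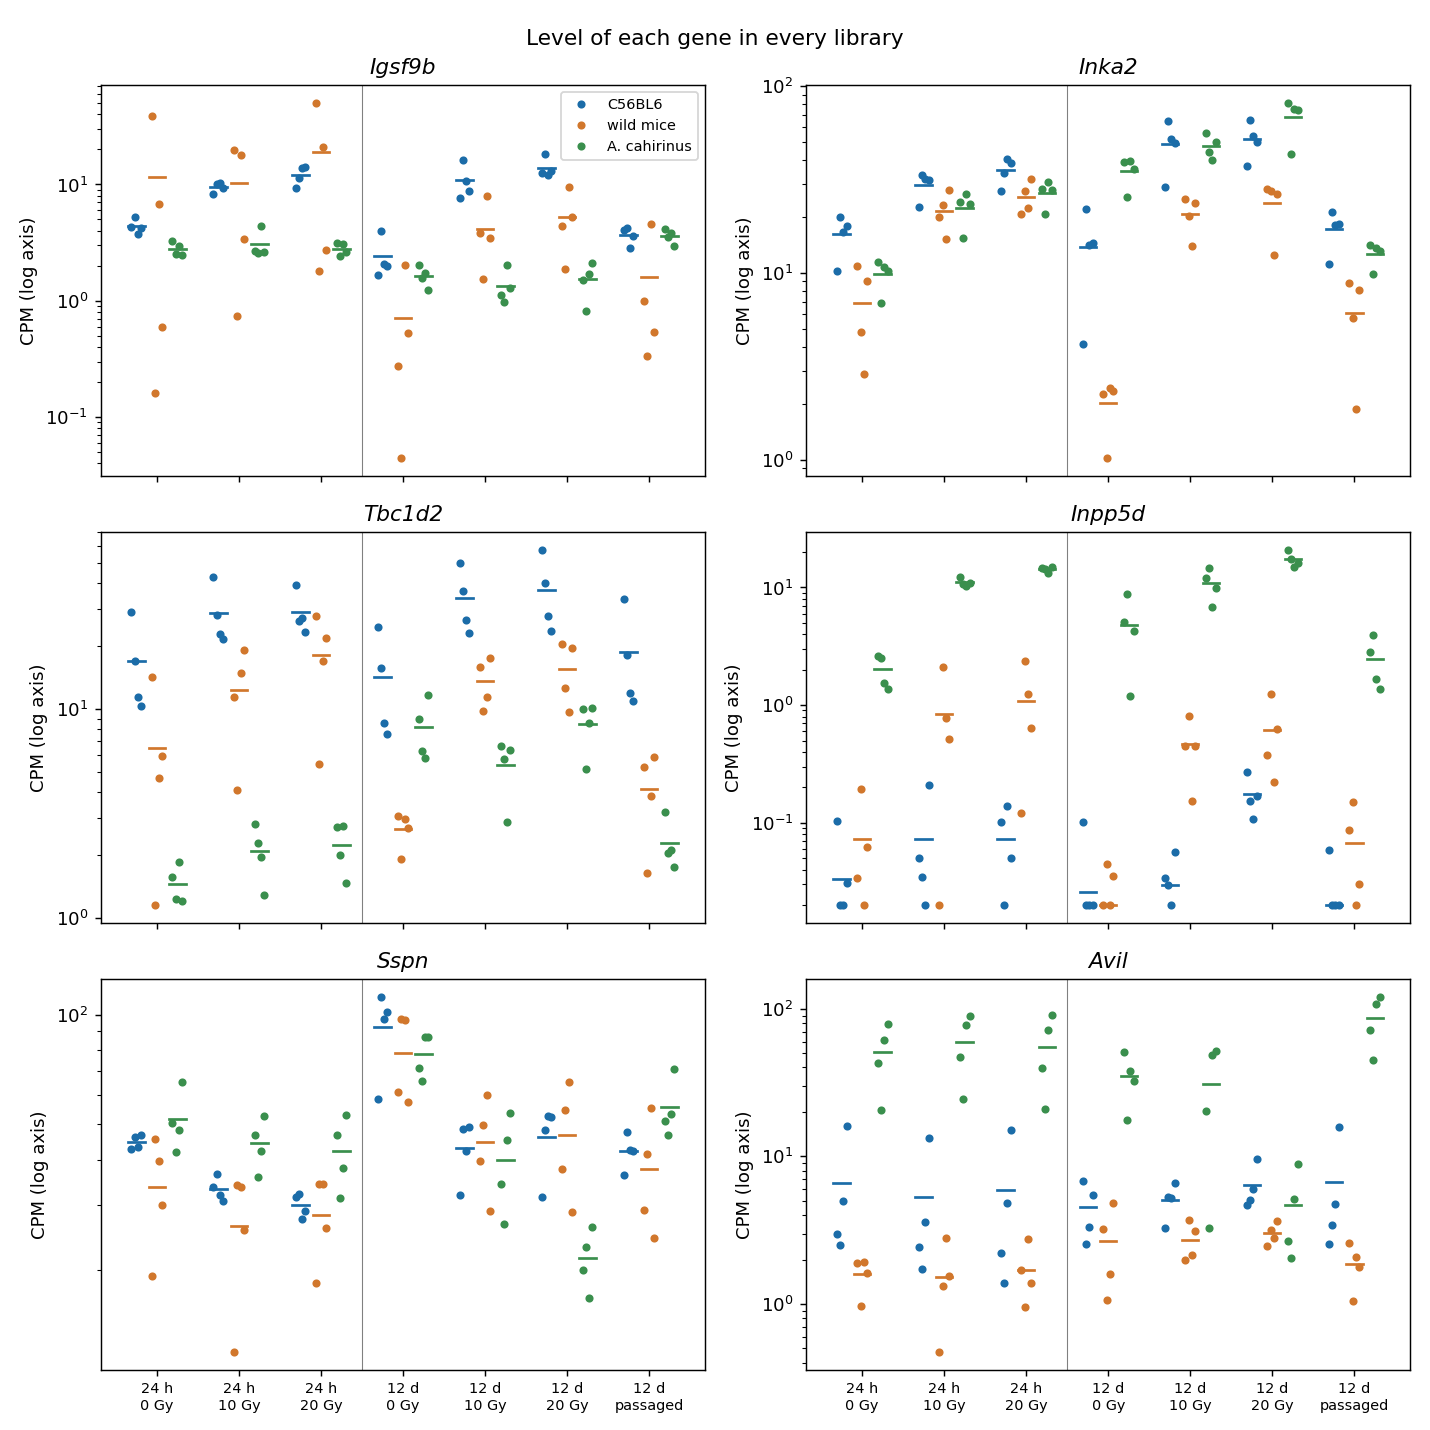
Level of each gene in every library, in CPM on a log axis, for the 7 groups of each population. Points are libraries, in the order of the animal numbers, and bars are group means; values below 0.02 CPM are drawn at 0.02. *Inka2* was higher in every irradiated group than in the untreated group of the same population and time, and *Inpp5d* was at most 2.37 CPM in any mouse library.

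Across populations and times, 25 tests of 20 Gy against untreated fell outside the settings that chose the genes. By edgeR's quasi-likelihood test with Benjamini-Hochberg adjustment over all genes (threshold 0.05), 8 of them passed, 6 higher and 2 lower. All 4 testable genes passed in C56BL6 at 12 d, *Igsf9b*, *Inka2* and *Tbc1d2* higher and *Sspn* lower, where 26.5% of all genes passed. In *A. cahirinus* at 12 d 3 of 5 passed, *Inka2* and *Inpp5d* higher and *Sspn* lower, against 31.8% of all genes. In *A. cahirinus* at 24 h *Inka2* alone of 5 passed, against 3.59%. None passed in C56BL6 at 24 h (0 of 3, against 0.0895%), in wild mice at 24 h (0 of 5, against 0%) or in wild mice at 12 d (0 of 3, against 0.0694%). Of these 3 settings, the members with unadjusted p under 0.05 numbered 2, 1 and 2, and DESeq2 called 1 in each: *Inka2* in C56BL6 and in wild mice at 24 h, and *Igsf9b* in wild mice at 12 d. In wild mice at 24 h no gene of 14473 passed in edgeR, 856 had an unadjusted p under 0.05 and DESeq2 called 0.698%. In C56BL6 at 24 h 1426 of 14526 genes had an unadjusted p under 0.05 and DESeq2 called 1.85%. In wild mice at 12 d these were 1984 of 14399 and 4.6%.

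The libraries of 1 animal deviated together. With the animal number as a block in the same fits, 17 of the 25 tests passed, 13 higher and 4 lower. With the block, *Inka2* and *Tbc1d2* also passed in C56BL6 at 24 h, where 17.6% of all genes then passed. *Igsf9b*, *Inka2* and *Tbc1d2* passed in wild mice at 24 h (12.5% of genes), and *Igsf9b* and *Sspn* in wild mice at 12 d (15.4%). *Tbc1d2* and *Sspn* were added in *A. cahirinus* at 24 h (24.1%). No gene was added in C56BL6 at 12 d (47.5%) or in *A. cahirinus* at 12 d (49.2%). Without the wild libraries numbered 1, the same 17 tests passed with the block. In fits without the block, leaving out number 3 or number 4 from every group left 3 calls. Those fits hold fewer libraries per group, and their share of all genes past the threshold is not given here.

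**Figure D2:**
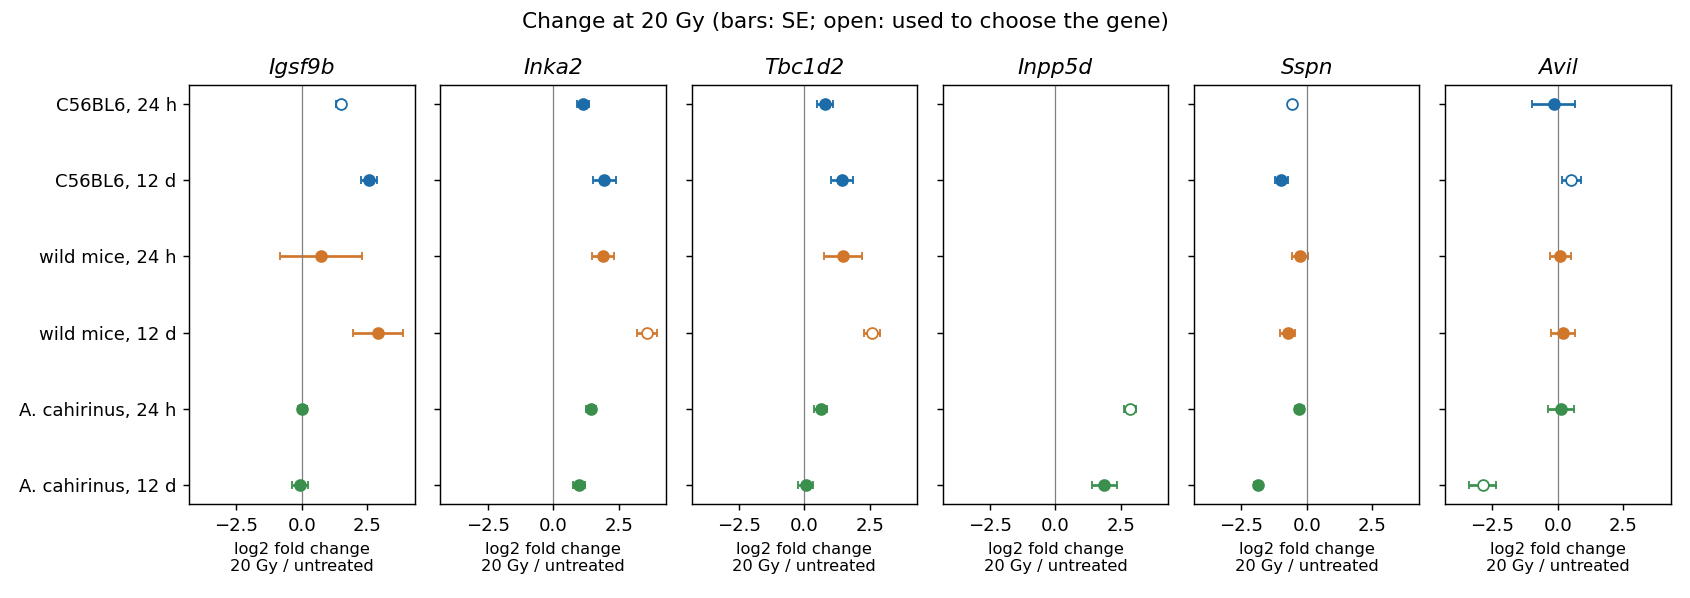
Log2 fold change at 20 Gy against untreated for each gene, with standard errors, in the 3 populations and at both times. Open points are the settings through which a gene was chosen; *Inpp5d* has no point in the mice because its counts there were below the filter. *Inka2* lies above 0 in all 6 settings, and *Igsf9b* in *A. cahirinus* lies at 0.01 and -0.07.

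*Inka2*, the PAK4 inhibitor, had a higher level at 20 Gy in every animal number of every population at both times, the wild 12 d setting that chose it included. In C56BL6 cells at 12 d, untreated libraries had 4.16, 22.1, 14.1 and 14.4 CPM and 20 Gy libraries 37.2, 65.5, 54.3 and 50.1 CPM. The groups did not overlap, the first animal being lowest in both. The change was 1.96 ± 0.44 on the log2 scale (SE; adjusted p = 0.0139), from 13.7 ± 7.35 to 51.8 ± 11.7 CPM (SD, n = 4). The call was lost without number 3 (1.95, adjusted p = 0.0912) or number 4 (2.0, adjusted p = 0.0792), with the estimate little changed. With the animal block the adjusted p was 0.00105.

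At 24 h the *Inka2* level in C56BL6 was 10.3, 19.9, 16.5 and 17.8 CPM untreated and 27.5, 34.4, 40.8 and 38.95 CPM at 20 Gy. These groups did not overlap either. The change of 1.14 ± 0.21 did not pass without the block (adjusted p = 0.0989) and passed with it (1.15 ± 0.09, adjusted p = 2.76e-06).

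In *A. cahirinus* at 24 h *Inka2* rose from 11.4, 6.91, 10.8 and 10.3 CPM to 28.1, 20.7, 30.6 and 27.6 CPM, a change of 1.45 ± 0.18 (adjusted p = 0.00534; 0.0741 without number 1 and 0.111 without number 3). Number 2 was lowest in both groups, and the groups did not overlap. At 12 d the untreated level was itself high, at 39.2, 25.4, 39.7 and 35.8 CPM, and the 20 Gy libraries had 81.4, 43.1, 75.0 and 74.8 CPM. This rise of 0.98 ± 0.23 passed (adjusted p = 0.0131), and was lost without number 1 (0.0666), 3 (0.0644) or 4 (0.0759). The blocked adjusted p at 12 d was 0.000225.

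Wild mouse cells at 24 h had 10.9, 4.82, 2.89 and 9.03 CPM of *Inka2* untreated and 20.7, 27.5, 22.3 and 31.96 CPM at 20 Gy. The change of 1.90 ± 0.41 had an adjusted p of 0.505 and, with the animal block, 0.000768. Without the libraries numbered 1 the blocked change was 2.40 with an adjusted p of 4.53e-06. At 12 d, the setting that chose the gene, the level was 2.26, 1.02, 2.43 and 2.34 CPM untreated and 28.1, 27.3, 12.4 and 26.4 CPM at 20 Gy, a log2 change of 3.57 ± 0.38. It was the largest rise of the 3 genes past the threshold there whose mean reached 5 CPM and whose 4 animals all moved alike. *Tbc1d2* followed at 2.57 and *Mafk* at 1.05.

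At 20 Gy against untreated cells, *Tbc1d2*, the Rab7 inactivator, passed in C56BL6 at 12 d and, with the block only, in each population at 24 h. In C56BL6 at 12 d the libraries had 24.8, 15.6, 8.57 and 7.58 CPM untreated and 57.6, 39.9, 27.7 and 23.4 CPM at 20 Gy. Animals kept their order, so the groups overlapped although each animal was higher at 20 Gy. The rise of 1.44 ± 0.43 passed (adjusted p = 0.0422) but not without number 2 (0.16), 3 (0.137) or 4 (0.0954). With the block it was 1.5 ± 0.09 (adjusted p = 0.000182).

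At 24 h the *Tbc1d2* means in C56BL6 were 16.9 ± 8.52 CPM untreated and 28.99 ± 7.04 CPM at 20 Gy (SD, n = 4). This change of 0.79 ± 0.32 passed with the block only (adjusted p = 0.474 without it, 0.000172 with it). In wild mice at 24 h the level went from 14.3, 1.16, 4.68 and 5.94 CPM to 27.9, 5.48, 16.95 and 21.8 CPM. Number 2 was lowest in both groups. The change was 1.48 ± 0.74 (adjusted p = 0.894; 0.000431 with the block; 7.26e-06 with the block and without number 1). In wild mice at 12 d, where the gene was chosen, it went from 3.09, 1.91, 2.97 and 2.69 CPM to 20.4, 12.5, 9.67 and 19.6 CPM.

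In *A. cahirinus* *Tbc1d2* was low at 24 h, with 1.57, 1.23, 1.85 and 1.21 CPM untreated and 2.74, 2.01, 2.75 and 1.47 CPM at 20 Gy. The log2 change of 0.62 ± 0.26 passed with the block only (adjusted p = 0.266 without it, 0.0245 with it). It lay -0.18 ± 0.44 from the C56BL6 change at 24 h (adjusted p = 0.966). At 12 d untreated libraries had 8.91, 6.28, 5.84 and 11.7 CPM and 20 Gy libraries 9.95, 5.17, 8.60 and 10.1 CPM, with numbers 1 and 3 higher and numbers 2 and 4 lower after 20 Gy. The change was 0.05 ± 0.29 (adjusted p = 0.903). At 10 Gy and 12 d all 4 animals were lower, by 0.60 ± 0.32 (adjusted p = 0.313; 0.0327 with the block). The difference from the C56BL6 change at 20 Gy and 12 d was -1.39 ± 0.54 (adjusted p = 0.0859; 0.000424 with the block).

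*Igsf9b*, the synaptic adhesion gene, was higher after 20 Gy in every mouse animal number and not in *A. cahirinus*. In C56BL6 at 12 d untreated libraries had 1.67, 3.97, 2.08 and 1.97 CPM and 20 Gy libraries 12.5, 18.2, 12.1 and 12.9 CPM. Every irradiated library was above every untreated one. The rise of 2.56 ± 0.30 (adjusted p = 0.00161) passed with each animal number left out in turn. At 24 h, where the gene was chosen, the level was 4.27, 5.24, 3.78 and 4.18 CPM untreated and 9.26, 11.3, 13.9 and 14.01 CPM at 20 Gy, a change of 1.48 ± 0.17. This was the largest of 9 such rises, ahead of *Pidd1* at 1.19.

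Wild mice had very unequal *Igsf9b* levels between animals. At 24 h untreated libraries had 38.5, 0.161, 6.76 and 0.594 CPM and 20 Gy libraries 50.5, 1.81, 20.9 and 2.76 CPM, so numbers 1 and 3 untreated were above numbers 2 and 4 irradiated. Within each number the 20 Gy library was higher. The change was 0.73 ± 1.57 (adjusted p = 1) and, with the block, 1.36 ± 0.29 (adjusted p = 0.011). It was 2.06 (adjusted p = 0.000172) when the libraries numbered 1 were also left out. At 12 d the levels were 0.276, 0.0445, 2.02 and 0.524 CPM untreated, the second of them under the floor, and 4.42, 1.89, 9.48 and 5.23 CPM at 20 Gy. The change of 2.89 ± 0.95 had an adjusted p of 0.245, which was 0.00604 with the block and 0.0413 with the block and without number 1.

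*A. cahirinus* showed no such pattern for *Igsf9b*. At 24 h untreated libraries had 3.295, 2.53, 2.94 and 2.48 CPM and 20 Gy libraries 3.15, 2.40, 3.07 and 2.63 CPM, with 2 animals higher and 2 lower. The change was 0.01 ± 0.17 (adjusted p = 0.991). At 12 d untreated libraries had 2.03, 1.57, 1.72 and 1.24 CPM and 20 Gy libraries 1.502, 0.824, 1.71 and 2.12 CPM, a change of -0.07 ± 0.31 (adjusted p = 0.878). The interaction of population and dose at 12 d was -2.64 ± 0.43 for *A. cahirinus* minus C56BL6 (adjusted p = 0.0012), and it passed with each number left out. For *A. cahirinus* minus wild mice it was -2.93 ± 1.01 (adjusted p = 0.126; 0.00262 with the block).

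**Figure D3:**
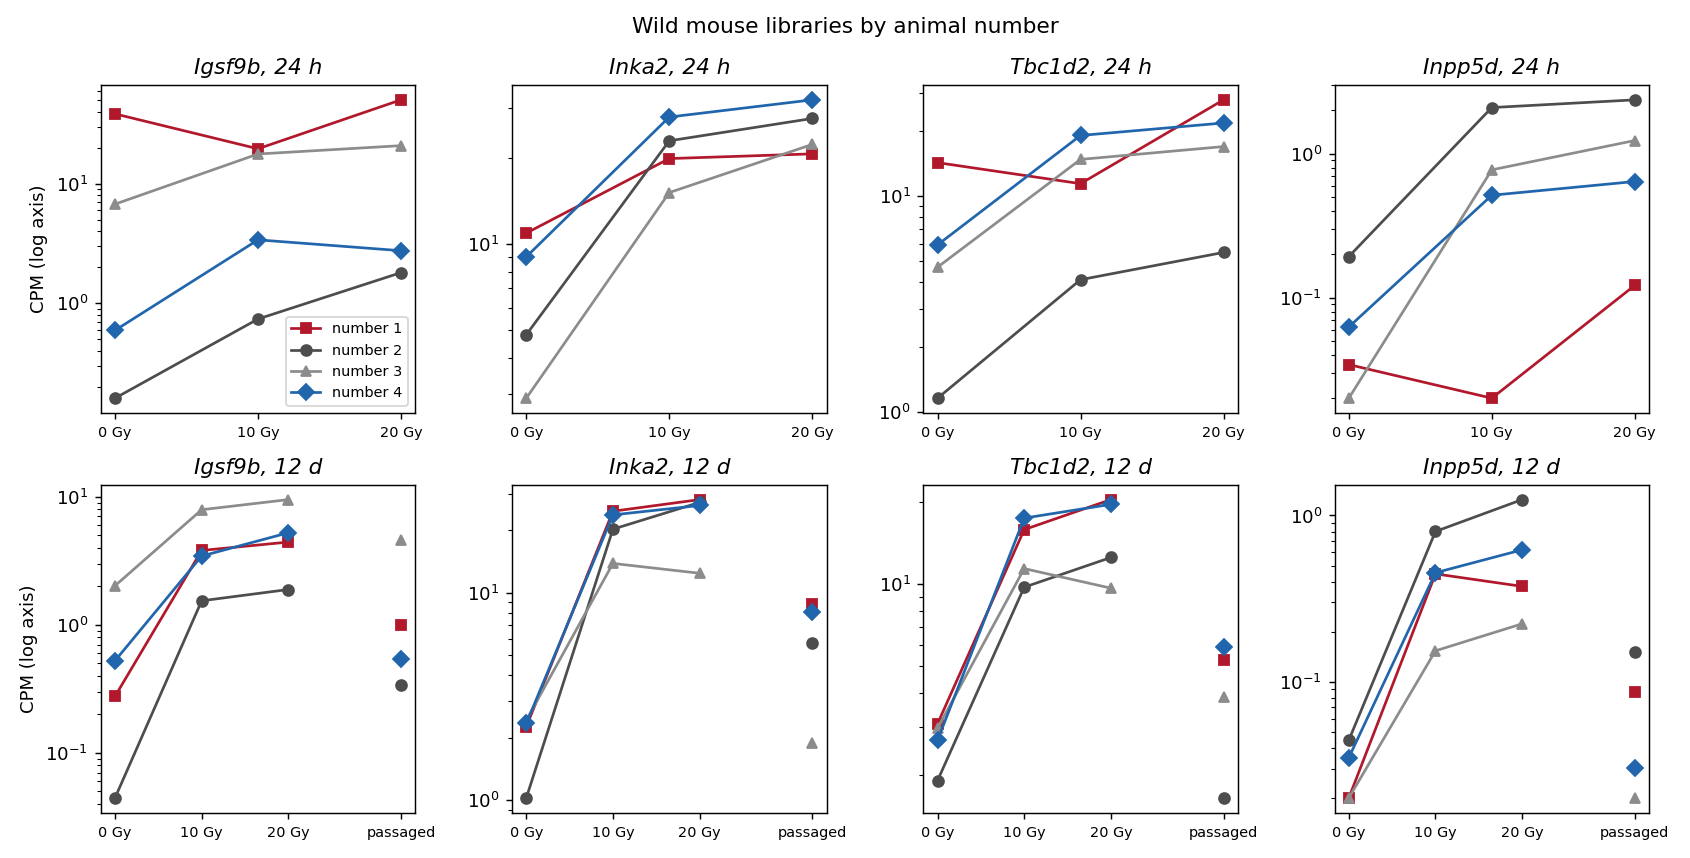
CPM of 4 genes in the wild mouse libraries on a log axis, by dose at 24 h (top) and 12 d (bottom), with 1 line per animal number and the untreated passaged libraries at the right. Values below 0.02 CPM are drawn at 0.02. *Igsf9b* spans 0.161 to 38.5 CPM among the untreated 24 h libraries. At 24 h number 1 is highest at every dose for *Igsf9b* and crosses other lines for *Inka2*, *Tbc1d2* and *Inpp5d*.

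*Inpp5d*, the PIP3 phosphatase of blood cells, was expressed in *A. cahirinus* and close to or under the floor in untreated mouse cells. In *A. cahirinus* at 24 h, where it was chosen, untreated libraries had 2.61, 2.53, 1.55 and 1.38 CPM and 20 Gy libraries 14.5, 14.4, 13.4 and 14.9 CPM. The change was 2.84 ± 0.22, the largest of 90 such rises, followed by *Eda2r* at 2.16 and *Lgals3bp* at 1.90. The 10 Gy libraries lay between, at 12.4, 10.6, 10.3 and 10.95 CPM.

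At 12 d untreated *A. cahirinus* libraries had 5.06, 8.72, 1.20 and 4.23 CPM of *Inpp5d* and 20 Gy libraries 20.9, 17.4, 15.02 and 16.2 CPM. Number 3 was lowest in both groups, and the groups did not overlap. The rise of 1.86 ± 0.47 passed (adjusted p = 0.0176), and was lost without number 1 (0.12) or number 4 (0.0871). With the block it was 2.04 ± 0.36 (adjusted p = 0.00349). At 10 Gy the 12 d change was 1.17 ± 0.51 (adjusted p = 0.231; 0.00694 with the block).

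In the mice *Inpp5d* did not pass the filter on low counts at 20 Gy against untreated, so pooled reads are compared. Over 4 wild libraries each, 24 h cells had 139 reads at 20 Gy and 9 untreated, a depth-adjusted ratio of 15.5 (95% interval 7.93 to 34.6). At 12 d they had 75 and 2 reads, a ratio of 35.5 (9.48 to 298). These intervals cover counting error only and take no account of differences between animals. The 24 h libraries at 20 Gy had 0.122, 2.37, 1.24 and 0.641 CPM, number 1 being lowest and near the floor, and the 12 d libraries 0.375, 1.25, 0.223 and 0.622 CPM.

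C56BL6 cells at 12 d had 27 *Inpp5d* reads at 20 Gy and 3 untreated, a ratio of 7.90 (2.43 to 40.7), with 0.273, 0.154, 0.108 and 0.168 CPM in the irradiated libraries. At 24 h they had 10 and 4 reads (ratio 2.21, 0.637 to 9.64), which is no detectable difference at this depth. Fitted without the filter, the changes had adjusted p = 0.0999 in C56BL6 at 12 d, 0.726 in wild mice at 24 h and 0.127 at 12 d. The population differences of *Inpp5d* at 12 d entered past the filter only through *A. cahirinus*, so they are no valid tests. The values were -0.84 ± 1.03 for *A. cahirinus* minus C56BL6 (adjusted p = 0.613) and -2.86 ± 1.06 for *A. cahirinus* minus wild mice (adjusted p = 0.152).

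Blood cell markers were measured beside *Inpp5d*. The summed level of 6 haematopoietic markers in *A. cahirinus* was 2.70 to 3.76 CPM untreated and 3.66 to 4.66 CPM at 20 Gy at 24 h, and 1.65 to 3.14 and 4.15 to 6.56 CPM at 12 d. *Cd68* and *Csf1r* made up most of it. *Ptprc*, the pan-leukocyte gene, was at most 0.112 CPM and *Cd3e* at most 0.0213 CPM in any *A. cahirinus* library. In C56BL6 at 12 d the list summed to 6.6 to 9.46 CPM untreated and to at least 15.8 CPM in every 20 Gy library. Pooled *Inpp5d* reads there were 3 and 27. At 10 Gy and 12 d the sum was at least 15.6 CPM, with 4 pooled *Inpp5d* reads. At 24 h the untreated and 20 Gy sums of C56BL6 overlapped. In wild mice the list summed to 10.7 to 48.2 CPM, and its untreated and 20 Gy ranges overlapped at both times. The part of these markers in the *Inpp5d* results was not tested. In bulk RNA, fewer cells of a type and less RNA per cell cannot be told apart.

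*Sspn*, the sarcospan gene, was lower at 20 Gy in every animal number of every population at both times, with the largest change in *A. cahirinus* at 12 d. Untreated libraries there had 71.5, 65.9, 87.0 and 87.0 CPM, 10 Gy libraries 34.3, 26.7, 45.4 and 53.7 CPM, and 20 Gy libraries 19.9, 23.1, 16.7 and 26.2 CPM. No library of one dose overlapped the next. The fall at 20 Gy was -1.86 ± 0.16 (adjusted p = 0.000254) and passed with each number left out. At 10 Gy it was -0.96 ± 0.20 (adjusted p = 0.0466), lost without number 1 (0.338), 3 (0.242) or 4 (0.159), and -1.0 with the block (adjusted p = 0.000918). The 20 Gy libraries lay -0.90 ± 0.23 from the 10 Gy ones (adjusted p = 0.146; 0.0123 with the block).

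In C56BL6 at 12 d *Sspn* was 58.5, 111.9, 96.98 and 101.9 CPM untreated and 31.6, 48.2, 52.6 and 52.5 CPM at 20 Gy. All 4 animals were lower after irradiation, and the groups did not overlap. The fall was -0.96 ± 0.23 (adjusted p = 0.0186), lost without number 2 (0.105), 3 (0.0918) or 4 (0.0848), and its blocked adjusted p was 0.000279. At 10 Gy it was -1.06 ± 0.22 (adjusted p = 0.013), lost without number 2 (0.0714), 3 (0.113) or 4 (0.071), and 20 Gy differed from 10 Gy by 0.11 ± 0.19 (adjusted p = 1). At 24 h, where the gene was chosen, it went from 44.8 ± 1.98 to 30.1 ± 2.19 CPM (SD, n = 4), a change of -0.57 ± 0.07. It was the sole fall past the threshold there at a mean of at least 5 CPM.

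Wild mouse *Sspn* at 12 d was 61.2, 97.4, 96.9 and 57.7 CPM untreated and 37.7, 54.7, 65.5 and 28.7 CPM at 20 Gy, lower in all 4 animals with overlapping groups. The change of -0.72 ± 0.29 had an adjusted p of 0.333, and 0.00719 with the block (0.0495 with the block and without number 1). At 24 h the changes were -0.24 ± 0.30 for the wild animals (adjusted p = 1; blocked, 0.151) and -0.28 ± 0.18 for *A. cahirinus* (adjusted p = 0.495; blocked, 0.0128). The 12 d interaction was -0.89 ± 0.30 for *A. cahirinus* minus C56BL6 (adjusted p = 0.0482). It was lost without number 2 (0.0676), 3 (0.292) or 4 (0.137), with the filter removed (0.0574) and with DESeq2's size factors in edgeR (0.0503), and was 0.00243 with the block. For *A. cahirinus* minus wild mice it was -1.12 ± 0.35 (adjusted p = 0.0943; 0.00229 with the block).

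Sarcospan sits in a complex that is most abundant in muscle, and *A. cahirinus* libraries held muscle markers. The sum of *Myod1*, *Myog*, *Des* and *Ckm* in *A. cahirinus* at 12 d was 994 to 2210 CPM untreated. It was 796 to 2510 CPM at 10 Gy and 508 to 2660 CPM at 20 Gy. In C56BL6 the sum was 1.72 to 23.2 CPM untreated and 6.23 to 40.7 CPM at 20 Gy. Other marker sums also differed between untreated and 20 Gy cells in C56BL6 at 12 d, adipocyte and fibroblast lower and haematopoietic higher. *Adipoq* and *Plin1*, the adipocyte markers, summed to 4.50 to 19.8 CPM untreated, 0.327 to 1.08 CPM at 20 Gy and 0.175 to 0.799 CPM in passaged cells. The 8 fibroblast markers summed to 19800 to 23900 CPM untreated, 10500 to 11500 CPM at 20 Gy and 17400 to 24300 CPM in passaged cells. In *A. cahirinus* at 12 d the adipocyte sum was at most 0.381 CPM. The part of these markers in the *Sspn* results was not tested.

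*Avil*, the advillin gene, had 2.06 to 121 CPM in *A. cahirinus* libraries, 1.39 to 16.1 CPM in C56BL6 and 0.473 to 4.86 CPM in wild mice. In *A. cahirinus* at 12 d, the setting that chose it, untreated libraries had 51.3, 17.6, 38.2 and 32.6 CPM, 10 Gy libraries 20.4, 3.26, 48.8 and 51.8 CPM, and 20 Gy libraries 2.69, 2.06, 5.17 and 8.94 CPM. All 20 Gy libraries were below all untreated ones, a change of -2.87 ± 0.51, whereas at 10 Gy numbers 1 and 2 were lower and 3 and 4 higher. The difference from the C56BL6 change was -3.40 ± 0.65, 175th of 1514 lower differences past the threshold, between *Kif26a* at -3.42 and *Myo5c* at -3.38.

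Outside that setting *Avil* showed little response. At 24 h in *A. cahirinus* untreated libraries had 42.9, 20.7, 61.4 and 79.1 CPM and 20 Gy libraries 39.4, 20.9, 71.6 and 90.1 CPM, a change of 0.13 ± 0.50 (adjusted p = 0.934). The 10 Gy change of 0.23 passed with the block only (0.06 SE, adjusted p = 0.0108; 0.862 without it). The changes at 20 Gy were -0.16 ± 0.83 in C56BL6 at 24 h (adjusted p = 0.98), 0.10 ± 0.39 in wild mice at 24 h (adjusted p = 1) and 0.20 ± 0.46 in wild mice at 12 d (adjusted p = 0.905). In C56BL6 at 24 h number 4 was high at every dose, with 16.1, 13.3 and 15.2 CPM against at most 5.01 CPM in the other animals. The 7 neuron, Schwann cell and melanocyte markers in *A. cahirinus* at 12 d summed to 46.9 to 79.9 CPM untreated and 113 to 157 CPM at 20 Gy, mostly *Tubb3*, the opposite direction to *Avil*, and their part was not tested.

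**Figure D4:**
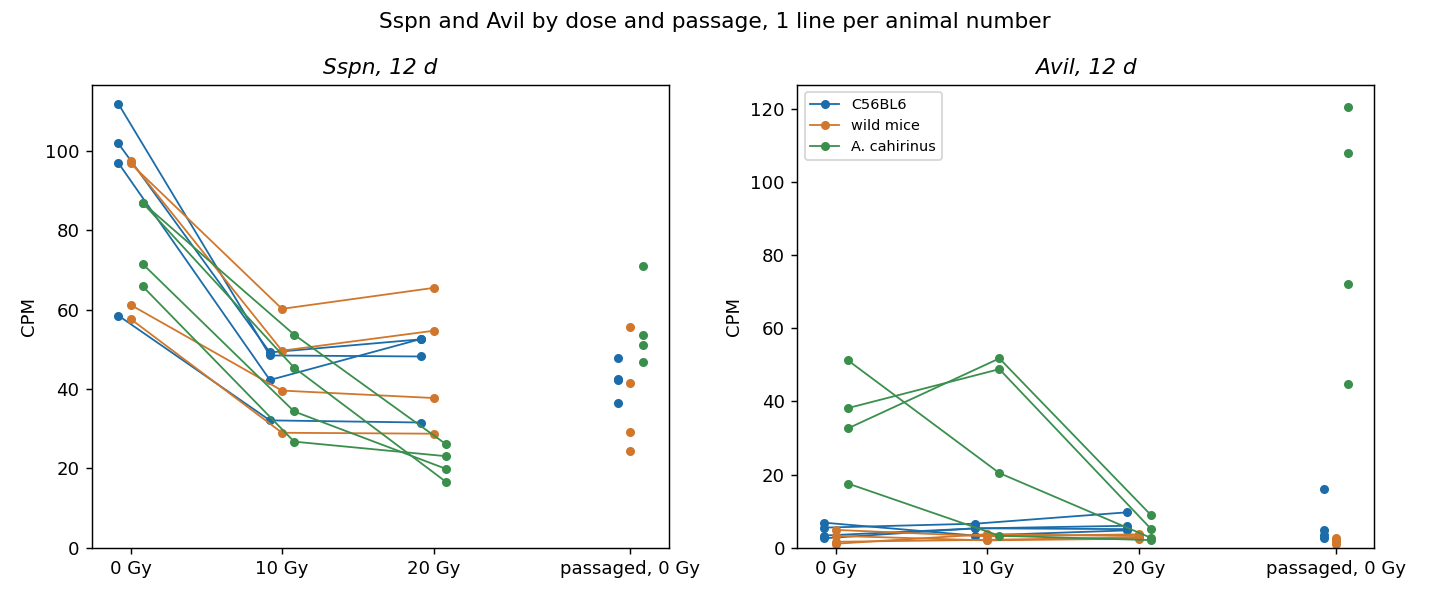
CPM of *Sspn* (left) and *Avil* (right) at 12 d by dose, with 1 line per animal number, and in the untreated passaged libraries. *Sspn* fell from 65.9 to 87.0 CPM untreated to 16.7 to 26.2 CPM at 20 Gy in *A. cahirinus*, and *Avil* in that population lies at 2.06 to 8.94 CPM at 20 Gy and 44.8 to 120.6 CPM in passaged cells.

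At 10 Gy *Inka2* was again higher in every animal number, and *Sspn* lower in every one. Of 25 tests of 10 Gy against untreated, 5 passed, 3 higher and 2 lower (11 at unadjusted p under 0.05). In C56BL6 at 12 d 3 of 4 passed, *Igsf9b* (2.21 ± 0.35, adjusted p = 0.00536) and *Inka2* (1.88 ± 0.46, adjusted p = 0.0248) higher and *Sspn* lower, against 20.9% of all genes. That of *Igsf9b* was lost without number 3 (0.0683) and that of *Inka2* without number 2 (0.0674), 3 (0.15) or 4 (0.117). In *A. cahirinus* *Inka2* passed at 24 h (1.18 ± 0.20, adjusted p = 0.0164; 1 of 5, against 3.73%; lost without number 1, 0.147, 3, 0.181, or 4, 0.11) and *Sspn* at 12 d (1 of 5, against 2.87%). By edgeR none passed in C56BL6 at 24 h (0 of 3, against 0.007%), in wild mice at 24 h (0 of 5, against 0%) or in wild mice at 12 d (0 of 3, against 0.264%), where 1, 1 and 2 of them had an unadjusted p under 0.05. Among all genes in these settings, 1116 of 14280, 603 of 14412 and 1763 of 14391 had one. DESeq2 called 8 of the 25 in all. Its share of all genes at 10 Gy ran from 0.638% (wild mice, 24 h) to 28.3% (C56BL6, 12 d).

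With the animal block 15 of the 25 tests at 10 Gy passed. *Inka2* and *Tbc1d2* were then called in C56BL6 at 24 h (11.5% of genes), and *Tbc1d2* joined the others at 12 d (38.8%). None was called in wild mice at 24 h (0%), and *Igsf9b* and *Sspn* were called in wild mice at 12 d (12.7%). In *A. cahirinus*, *Avil* and *Sspn* joined *Inka2* at 24 h (27.6%), and *Inka2*, *Inpp5d* and *Tbc1d2* joined *Sspn* at 12 d (27.5%). The wild result at 24 h depended on the libraries numbered 1. Without them, and with the block, *Igsf9b* (1.78, adjusted p = 0.000531), *Inka2* (2.06, adjusted p = 4.26e-05) and *Tbc1d2* (1.72, adjusted p = 4.26e-05) passed, as did, lower, *Sspn* (-0.28, adjusted p = 0.0318). The share of all genes past the threshold in that fit is not given here, so these calls cannot be set against it.

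The step from 10 to 20 Gy was tested in the same way. None of 27 member tests of 20 against 10 Gy passed in edgeR, 3 had an unadjusted p under 0.05, and DESeq2 called 1, *Sspn* in *A. cahirinus* at 12 d (adjusted p = 0.0199). There DESeq2 called 5.2% of all genes. The share of all genes past the threshold was 0% in C56BL6 and in wild mice at both times and in *A. cahirinus* at 24 h, and 0.457% in *A. cahirinus* at 12 d. With the block 5 tests passed. They were *Inka2* in C56BL6 at 24 h (0.26 ± 0.05, adjusted p = 0.0187; 1.44% of genes) and in *A. cahirinus* at 24 h (0.27 ± 0.05, adjusted p = 0.022; 0.302% of genes), and *Inka2*, *Inpp5d* and *Sspn* in *A. cahirinus* at 12 d (17.9% of genes). No member test passed with the block in C56BL6 at 12 d (0.297% of genes), in wild mice at 24 h (0%) or in wild mice at 12 d (0.257%). Without the wild libraries numbered 1, *Inka2* passed with the block at 24 h (0.32 ± 0.07, adjusted p = 0.0134), with no share of all genes given for that fit.

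Of 12 tests of untreated passaged against untreated cells, 5 passed. In *A. cahirinus* 4 of 5 passed, against 25.8% of all genes. *Inka2* fell to 14.1, 9.87, 13.7 and 13.2 CPM, below every untreated library, by 1.48 ± 0.17 on the log2 scale (adjusted p = 0.00119). *Tbc1d2* fell to 3.22, 2.06, 2.12 and 1.75 CPM, by 1.85 ± 0.28 (adjusted p = 0.00315), and *Sspn* to 51.2, 46.8, 53.5 and 71.1 CPM, by 0.50 ± 0.15 (adjusted p = 0.0377). *Igsf9b* rose to 4.11, 3.54, 3.83 and 2.97 CPM, by 1.12 ± 0.20 (adjusted p = 0.00585). The call of *Igsf9b* was lost without number 3 (0.06), and that of *Sspn* without number 1 (0.155), without number 3 (0.198) or with all groups in one fit (0.121).

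In C56BL6 1 of 4 passed, against 49.6% of all genes. *Sspn* was 36.4, 47.7, 42.6 and 42.3 CPM in passaged cells, below every untreated library, a fall of 1.13 ± 0.19 on the log2 scale (adjusted p = 0.00224) beside -0.96 at 20 Gy. In wild mice 0 of 3 passed in edgeR, against 10.7%, with 1 at unadjusted p under 0.05, *Sspn* at -1.07 ± 0.30 (adjusted p = 0.0571; 0.00725 in DESeq2). With the block 9 of 12 passed. These added *Igsf9b* (adjusted p = 0.0465) and *Tbc1d2* (0.00762), both higher, in C56BL6 (60.1% of genes), *Sspn* in wild mice (0.0023; 31.9% of genes) and *Inpp5d*, lower, in *A. cahirinus* (0.0301; 49.5% of genes). In the chosen setting, *Avil* in *A. cahirinus* had 72.1, 44.8, 107.9 and 120.6 CPM in passaged cells, a change of 1.30 ± 0.38.

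Set against passaged rather than kept untreated cells, the 20 Gy changes in *A. cahirinus* were larger in size for *Inka2*, *Tbc1d2*, *Inpp5d* and *Igsf9b* and smaller for *Sspn*, with the same 20 Gy libraries in both. In *A. cahirinus* all 5 testable genes passed, against 42.5% of all genes. *Inka2* was higher by 2.44 ± 0.23 (adjusted p = 0.000182), *Tbc1d2* by 1.90 ± 0.28 (adjusted p = 0.00131) and *Inpp5d* by 2.85 ± 0.32 (adjusted p = 0.00037). *Sspn* was lower at -1.37 ± 0.18 (adjusted p = 0.000726) and *Igsf9b* was lower at -1.21 ± 0.29 (adjusted p = 0.0112; lost without number 1, 0.0792, or 3, 0.0671). For *Tbc1d2* the change against kept untreated cells was 0.05 ± 0.29.

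In C56BL6 2 of 4 passed against passaged cells, *Igsf9b* (1.93 ± 0.19, adjusted p = 0.000168) and *Inka2* (1.61 ± 0.23, adjusted p = 0.000993), both with each number left out, against 41.6% of all genes. *Sspn* was 0.14 ± 0.17 (adjusted p = 0.519). In wild mice 0 of 3 passed in edgeR, against 10.5%, 1 had an unadjusted p under 0.05 and DESeq2 called 0, against 18.2% of all genes. With the block 10 of 12 passed, adding *Tbc1d2* in C56BL6 (1.07 ± 0.09, adjusted p = 6.63e-05; 56.1% of genes), and *Igsf9b* (2.12 ± 0.35, adjusted p = 0.00295) and *Sspn* (0.34 ± 0.08, adjusted p = 0.0125) in wild mice (38% of genes; without wild number 1 *Sspn* was lost, 0.0618, and *Avil* passed at 1.0, 0.045), and none in *A. cahirinus* (56% of genes). Comparisons with kept untreated and with passaged cells share the 20 Gy libraries.

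The difference between populations in the change at 20 Gy was tested 21 times outside the choice, and 2 passed, *Igsf9b* and *Sspn* at 12 d in *A. cahirinus* minus C56BL6, both lower (2 of 5, against 18.8% of all genes). None passed in edgeR for *A. cahirinus* minus C56BL6 at 24 h (0 of 3, against 2.09%), for *A. cahirinus* minus wild mice at 24 h (0 of 5, against 0%) or at 12 d (0 of 3, against 3.35%), or for wild mice minus C56BL6 at 24 h (0 of 3, against 0%) or 12 d (0 of 2, against 0%). In all, 6 of the 21 had an unadjusted p under 0.05 and DESeq2 called 4. At 12 d DESeq2 called 24.7% of all genes for *A. cahirinus* minus C56BL6 and 8.29% for *A. cahirinus* minus wild mice. The 21 include *Inpp5d* in these 12 d contrasts of *A. cahirinus* with mice. It passed the filter there only through *A. cahirinus* and is no valid test. With the block 8 passed, all lower. *Inka2* (-1.15, adjusted p = 0.00944) and *Tbc1d2* (-1.44, adjusted p = 0.000424) were added for *A. cahirinus* minus C56BL6 at 12 d (38% of genes).

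For *A. cahirinus* minus wild mice the block added *Igsf9b* (-1.34, adjusted p = 0.0429) and *Tbc1d2* (-1.08, adjusted p = 0.0251) at 24 h (7.25% of genes), and *Igsf9b* and *Sspn* at 12 d (23.3%). It added none for *A. cahirinus* minus C56BL6 at 24 h (16.8%) or for wild mice minus C56BL6 at 24 h (0.647%) or 12 d (0.101%). Without the wild libraries numbered 1, the blocked fits also called *Inka2* (1.22, adjusted p = 0.00776) and *Tbc1d2* (1.09, adjusted p = 0.00992), both higher, for wild mice minus C56BL6 at 24 h, and *Inka2*, lower, for *A. cahirinus* minus wild mice at 24 h (-0.93, adjusted p = 0.0141). The share of all genes called in those fits is not given here. The *Inka2* change at 24 h was 1.14 in C56BL6 and 1.45 in *A. cahirinus*, with an interaction of 0.30 ± 0.29 (adjusted p = 0.832).

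The order of the group means over time and treatment, as a description, separated irradiated from untreated groups for some genes. Only neighbours in this order were compared, so groups further apart in it can be separate too. Time and batch cannot be told apart in it, and how many of all genes show such gaps was not counted. For *Inka2* in C56BL6 and in wild mice, the 3 groups without irradiation had the lowest means and the gap to the irradiated groups was the sole place where neighbouring groups did not overlap. In *A. cahirinus* the untreated 12 d cells stood with the irradiated 24 h groups, and only the 12 d irradiated groups were higher. *Igsf9b* in C56BL6 showed the same single gap, and in *A. cahirinus* a single gap between the unpassaged 12 d groups, which were lower, and the rest. *Inpp5d* in *A. cahirinus* had gaps below the 20 Gy groups, at 24 h and at 12 d, and no gap between neighbours among the lower 5. Even so, its 10 Gy libraries at 24 h (10.3 to 12.4 CPM) all lay above the untreated ones (1.38 to 2.61 CPM). *Sspn* had a single gap in C56BL6, below the untreated 12 d cells (92.3 ± 23.4 CPM), and a single gap in *A. cahirinus*, above the 20 Gy 12 d cells (21.4 ± 4.09 CPM). No neighbouring groups of *Tbc1d2* or *Avil* were separate in any population, although *Avil* in *A. cahirinus* at 12 d was lower in every 20 Gy library than in every untreated one.

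How the genes varied together was described over the 28 libraries of each population, after removing each animal's mean at each time. The libraries share animals and treatments, so the correlations carry no test. *Igsf9b*, *Inka2* and *Tbc1d2* were correlated at 0.93 to 0.98 in C56BL6 and at 0.91 to 0.94 in wild mice. *Inpp5d*, though low in the mice, was correlated with each of them at 0.92 to 0.94 in wild mice and at 0.53 to 0.63 in C56BL6. In *A. cahirinus* *Inka2* and *Tbc1d2* had 0.82 and *Inka2* and *Inpp5d* 0.90, but *Igsf9b* had -0.69 with *Inka2*. *Sspn* and *Avil* had 0.80 in *A. cahirinus* and -0.27 in C56BL6.

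**Figure D5:**
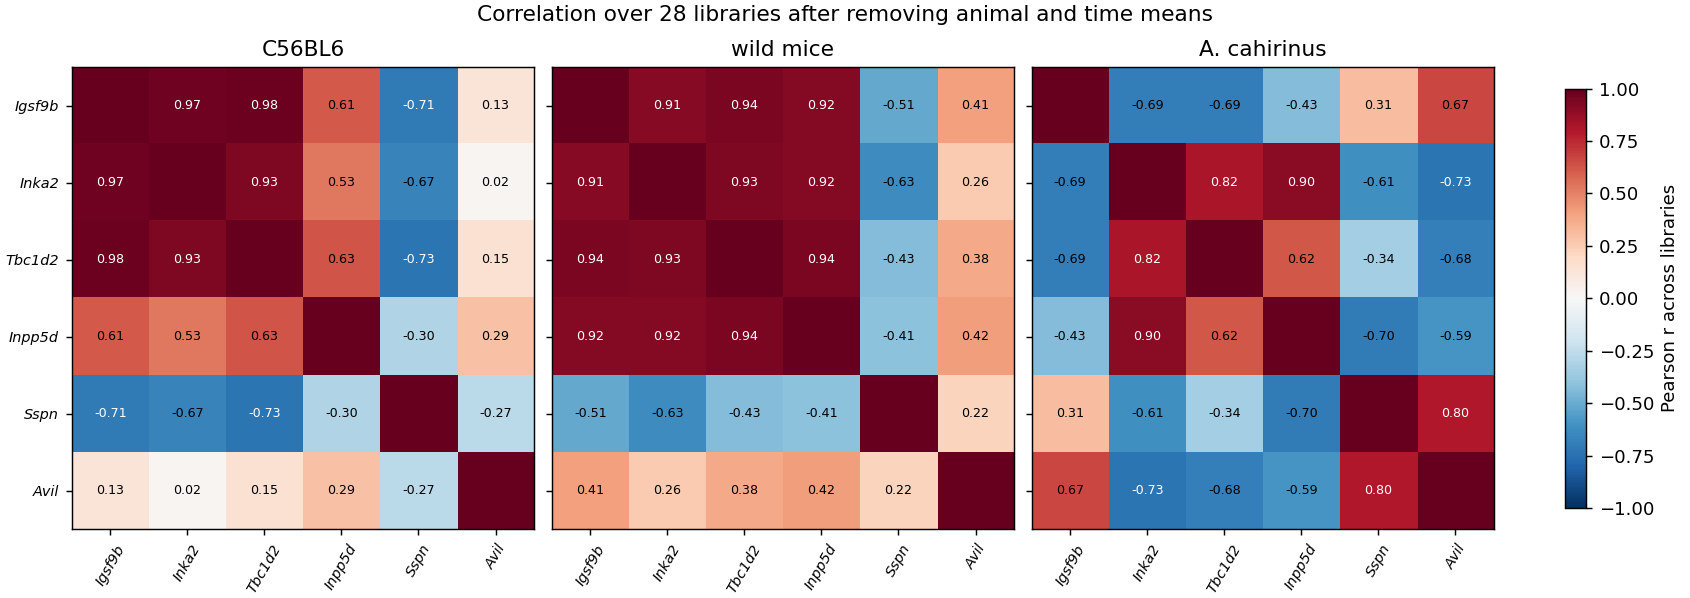
Pearson correlation of log2 CPM between the 6 genes over 28 libraries of each population, after removing the mean of each animal number at each time. Red is positive and blue negative, on a scale from -1 to 1. *Igsf9b* and *Inka2* have 0.97 in C56BL6, 0.91 in wild mice and -0.69 in *A. cahirinus*.

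The 3 genes most like each member were taken in the population that chose it, among genes at a mean of at least 1 CPM. *Igsf9b* in C56BL6 was most like *Mdm2* (0.99), *Pmaip1* (0.98) and *Crip2* (0.97). The first pair, a p53 antagonist and a pro-death BCL2 family member, kept 0.95 and 0.94 in wild mice and had -0.47 and -0.60 in *A. cahirinus*. *Inka2* in wild mice was most like *Slc19a2* (0.98), a thiamine transporter, the cell-cycle inhibitor *Cdkn1a* (0.98) and *Pidd1* (0.97), which had 0.90, 0.93 and 0.92 in C56BL6. In *A. cahirinus* *Cdkn1a* had 0.98, but *Slc19a2* 0.48 and *Pidd1* 0.51. *Tbc1d2* in wild mice was most like *Mdm2* (0.97), *Ano3* (0.97) and *Ces2g* (0.96), with *Mdm2* at 0.97 in C56BL6 and 0.49 in *A. cahirinus*.

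*Inpp5d* in *A. cahirinus* was most like *Cd80*, *Eda2r* and *Exoc4*, each at 0.96, and these had 0.93, 0.92 and 0.96 in wild mice and 0.57, 0.45 and 0.50 in C56BL6, where the gene was near or under the floor. *Sspn* in C56BL6 was most like *Pccb* (0.98), a mitochondrial propionyl-CoA carboxylase subunit, *Pcdhga6* (0.97) and *Ggt5* (0.97). *Avil* in *A. cahirinus* was most like *Trib3* (0.98), *Slc7a3* (0.98) and *Slc7a5* (0.97), a pseudokinase of amino acid stress and a pair of amino acid transporters. In C56BL6 these had 0.02, 0.20 and 0.08, and in wild mice -0.45, -0.36 and -0.22.

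Genes related to the 6 proteins by family or by textbook role were followed through 6 lists with 61 genes. At 20 Gy against untreated, 31 tests of these genes passed in all, every one of them at 12 d in C56BL6 or *A. cahirinus*. They were 11 of 53 tested in C56BL6 (20.8%), where 26.5% of all genes passed, and 20 of 57 in *A. cahirinus* (35.1%), where 31.8% did, so the lists lay near the background. With the block 85 passed, again near or below the background. At 12 d this was 49.1% against 47.5% of all genes in C56BL6, 9.62% against 15.4% in wild mice and 43.9% against 49.2% in *A. cahirinus*. At 24 h it was 18% against 17.6%, 9.62% against 12.5% and 26.3% against 24.1%. Without the block, 12 to 34 passed when a number was left out, with no share of all genes given for those fits. At 12 d in C56BL6, 4 of 13 tested genes of the dystrophin-glycoprotein list passed, *Dmd* and *Sgca* higher and *Sgce* and *Sntb1* lower, with a median log2 change of -0.03 over the list against -0.01 over all genes. *Sgca*, the muscle alpha-sarcoglycan, was low and rose from 0.181 ± 0.07 to 0.736 ± 0.137 CPM (SD, n = 4; log2 change 2.04 ± 0.33, adjusted p = 0.00421). In *A. cahirinus* 4 of 14 passed, *Utrn*, *Dag1* and *Lama2* higher and *Dtnb* lower, with a median of 0.18 against 0.00. *Lama2*, the laminin chain that dystroglycan binds, rose from 14.2 ± 1.98 to 26.6 ± 7.64 CPM (0.92 ± 0.22, adjusted p = 0.0161). In *A. cahirinus* *Sspn* fell while these 3 genes of its complex rose.

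Of the gelsolin and villin family, 2 of 5 passed in C56BL6 at 12 d, *Flii* higher and *Svil* lower, and 1 of 6 in *A. cahirinus*, *Vill* higher. *Svil*, the membrane-bound supervillin, fell from 215.2 ± 21.8 to 101.9 ± 12.8 CPM in C56BL6 (-1.04 ± 0.12, adjusted p = 0.00142). *Vill* rose from 1.66 ± 0.503 to 4.49 ± 1.55 CPM in *A. cahirinus* (1.44 ± 0.34, adjusted p = 0.0144), while *Avil* was lower there. Of the phosphoinositide list, which holds PI3K subunits and lipid phosphatases, 2 of 14 passed in C56BL6, *Synj1* and *Pik3cb*, both higher. In *A. cahirinus* 6 of 16 passed, 4 higher and 2 lower, the largest being *Inpp5j*, another 5-phosphatase, from 0.364 ± 0.11 to 10.5 ± 7.90 CPM (4.83 ± 0.80, adjusted p = 0.00319). *Pik3cb*, a catalytic subunit of PI3K, was 7.35 ± 3.63 CPM untreated and 17.2 ± 5.98 CPM at 20 Gy in C56BL6 (1.27 ± 0.37, adjusted p = 0.0376).

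Of Inka1 and the PAK kinases, 1 of 6 passed in C56BL6, *Pak2* higher (0.33 ± 0.08, adjusted p = 0.0179), and 2 of 6 in *A. cahirinus*, *Pak3* higher (1.03 ± 0.20, adjusted p = 0.00564) and *Pak4*, the kinase that Inka2 inhibits, lower. Of 11 genes listed with *Tbc1d2*, which are *Rab7* and genes related to it or to *Tbc1d2*, 1 passed in C56BL6, *Plekhm1* higher (0.35 ± 0.09, adjusted p = 0.021). In *A. cahirinus* 5 passed, *Rab7* and *Plekhm1* higher and *Tbc1d2b*, *Tbc1d5* and *Tbc1d15* lower, with *Tbc1d2b*, the paralog of *Tbc1d2*, at 74.6 ± 6.23 CPM untreated and 40.97 ± 6.03 CPM at 20 Gy (-0.86 ± 0.12, adjusted p = 0.00137). Of 4 genes listed with *Igsf9b*, *Gphn*, the gephyrin scaffold of inhibitory synapses, fell in C56BL6 from 18.4 ± 2.05 to 7.74 ± 0.637 CPM (-1.21 ± 0.11, adjusted p = 0.00105). *Igsf9* and *Magi2* fell in *A. cahirinus*, *Magi2* by 0.90 ± 0.17 on the log2 scale (adjusted p = 0.0054).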

How the data were processed

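Gene-level read counts were deposited for 84 libraries. Per the file headers, the authors counted reads with featureCounts 2.0.3 against GRCm39 (Ensembl release 108, by gene ID) for the mice and AcoCah2 (by gene name) for *A. cahirinus*, with no strand option, although the labels name a stranded kit. Trim Galore and HISAT2 are named without versions in the submitters' processing notes. Mouse IDs were given symbols from GENCODE M39 (56236 of 56980 matched).

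The members and lists were chosen with earlier results of these data known. Each comparison was fitted on its own groups with edgeR 4.0.16 in R 4.3.3 (filterByExpr, TMM scaling, quasi-likelihood test, Benjamini-Hochberg adjustment over all genes, threshold 0.05). Population differences were interaction terms over 18109 shared symbols. A standard error is the absolute log2 fold change divided by the square root of F. Scripts were tested on simulated data. Tables and plots used Python 3.11.15, pandas 2.3.3, numpy 2.4.6 and matplotlib 3.10.9.

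Replicate numbers in the titles match 1 animal code each in the library names, at both times and all doses, so they pair the samples (wild number 1 excepted across times, by its expressed genes). Over 24 comparisons, deviations of same-numbered libraries had a mean correlation of 0.50 to 0.89 (lowest pair 0.36), against -0.29 to -0.12 for different numbers. The animal number as a block was an alternative, as were DESeq2 1.42.0, its size factors (RLE), no filter, all groups in one fit and leaving out each number. A blocked fit without wild number 1 was added after seeing the data. Its share of all genes past the threshold is not given here, so its calls have no background beside them.

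Named companion genes had the largest absolute change of their list among those past the threshold. The 3 genes most like a member were those of highest Pearson correlation of log2 CPM (prior count 2) at a mean of at least 1 CPM. Intervals on pooled reads are exact at 95% and cover counting error only.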

Additional observations from a re-analysis of the deposited data

Results flagged for a closer look

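In 9 groups of 4 libraries, 1 library stood far from the other 3 by Dixon's 95% criterion. Chance flags about 1 in 20 groups, and 126 were tested. For *Igsf9b* these were C56BL6 20 Gy 12 d number 2 (18.2 CPM, high), wild passaged number 3 (4.58 CPM, high) and *A. cahirinus* 10 Gy 24 h number 3 (4.38 CPM, high). For *Inka2* they were wild untreated 12 d number 2 (1.02 CPM, low) and wild 20 Gy 12 d number 3 (12.4 CPM, low). For *Inpp5d* they were C56BL6 number 1 untreated at 12 d (0.102 CPM) and passaged (0.059 CPM), both at or under 3 reads while the other 3 libraries had 0. For *Avil* they were C56BL6 number 4 at 10 Gy and 24 h (13.3 CPM) and passaged (15.9 CPM).

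Populations differed in the change at 20 Gy by an interaction test outside the choice in 2 cases, both *A. cahirinus* minus C56BL6 at 12 d, *Igsf9b* at -2.64 and *Sspn* at -0.89. The differences that share libraries with the choice were -1.48 for *Igsf9b* (*A. cahirinus* minus C56BL6, 24 h), -2.58 for *Inka2* and -2.50 for *Tbc1d2* (*A. cahirinus* minus wild, 12 d), and -3.40 and -3.06 for *Avil* at 12 d (*A. cahirinus* minus C56BL6 and minus wild). Of these, only the -3.40 of *Avil* was itself the value that chose the gene. They are descriptions.

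In other contrasts every animal of one population moved one way and every animal of another the opposite way, and these differences were not tested. How many of all genes show such opposed directions was not counted, so the cases are descriptions. *Igsf9b* at 20 Gy against passaged cells was -1.21 in *A. cahirinus*, against 1.93 in C56BL6 and 1.74 in the wild. *Tbc1d2* at 10 Gy and 12 d was -0.60 in *A. cahirinus*, 1.31 in C56BL6 and 2.36 in the wild. *Tbc1d2* in passaged against untreated cells was 0.41 in C56BL6 and -1.85 in *A. cahirinus*. *Sspn* at 20 Gy against passaged cells was -1.37 in *A. cahirinus* against 0.34 in the wild, and *Avil* at 10 Gy and 24 h was -0.33 in C56BL6 and 0.23 in *A. cahirinus*.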

How the results depend on the processing

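The counts of calls changed most when the animal number was made a block or was left out. Leaving out a number also leaves fewer libraries per group, and an estimate could stay alike while its call was lost. *Inka2* in C56BL6 at 12 d and 20 Gy was 1.96 with all numbers, 1.95 without number 3 and 2.0 without number 4. Shares of all genes past the threshold are given above for the blocked fits, but not for the leave-one-out fits. With the animal number as a block, the counts of member tests past the threshold went from 8 to 17 (20 Gy against untreated), 5 to 15 (10 Gy against untreated), 0 to 5 (20 against 10 Gy), 5 to 9 (passaged against untreated) and 2 to 8 (population differences), and companion calls from 31 to 85. With the block and without wild number 1, a fit whose share of all genes is not given here, they were 18, 20, 6, 9, 11 and 82. The first and second of these each include *Inpp5d* in wild mice at 24 h, which entered past the filter only through its irradiated libraries and is no valid test. Leaving out 1 number gave 3 to 6, 0 to 5, 0 to 3, 4 to 6, 1 to 2 and 12 to 34. DESeq2 gave 8 at 10 Gy, 1 for 20 against 10 Gy and 4 population differences, RLE and no filter 1 population difference each, and all groups in one fit 1 for 20 against 10 Gy. The count for 20 Gy against passaged cells (7) stayed within 1.5 times under the alternatives, at 7 to 10.

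Directions turned for small, uncalled changes. *Igsf9b* in wild mice at 10 Gy and 24 h went from -0.09 to 1.15 with the block and to 1.78 with the block and without number 1, and its wild minus C56BL6 difference at 24 h from -0.76 to 0.51 with the block and without number 1. *Igsf9b* in *A. cahirinus* at 20 Gy and 24 h went from 0.01 to -0.0043 (RLE), -0.01 (DESeq2) and -0.01 (all groups). *Avil* in C56BL6 at 20 Gy against passaged cells went from -0.05 to 0.23 with the block. With the block and without wild number 1 *Avil* went to 0.33 (wild 24 h, 10 Gy), -0.20 (20 against 10 Gy), -0.07 (*A. cahirinus* minus wild, 24 h) and 0.01 (wild minus C56BL6, 12 d). The cause was not tested.

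Ranges on leaving out 1 number that crossed 0 were, for *Igsf9b*, -0.66 to 1.57 (wild 24 h, 10 Gy), -0.91 to 0.20 (wild minus C56BL6, 24 h), and in *A. cahirinus* -0.04 to 0.03 (24 h, 20 Gy), -0.07 to 0.28 (24 h, 10 Gy), -0.25 to 0.05 (24 h, 20 against 10 Gy), -0.38 to 0.12 (12 d, 20 Gy) and -0.03 to 0.41 (12 d, 20 against 10 Gy). For *Tbc1d2* they were -0.06 to 0.08 (C56BL6 24 h, 20 against 10 Gy), -0.04 to 0.20 (*A. cahirinus* 24 h, the same) and -0.08 to 0.18 (*A. cahirinus* 12 d, 20 Gy). For *Avil* they were -0.01 to 0.63, -0.24 to 1.09 and -0.19 to 0.57 (C56BL6 12 d at 10 Gy, passaged, and 20 Gy against passaged), -0.14 to 0.19, -0.38 to 0.34 and -0.17 to 0.25 (wild 24 h at 20 Gy, 10 Gy, and 20 against 10 Gy), -0.10 to 0.53 and -0.40 to 0.43 (wild 12 d at 20 and 10 Gy), -0.56 to 0.22 (*A. cahirinus* 12 d, 10 Gy), -0.13 to 0.21 (*A. cahirinus* minus wild, 24 h) and -0.54 to 0.18 (wild minus C56BL6, 12 d). Depth limited *Inpp5d* in the mice, where untreated groups held 2 to 9 reads over 4 libraries.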
